A study of Setaria italica with 24 samples.

Results

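Arbuscular mycorrhizal (AM) fungi grow between and into the cells of plant roots and form arbuscules, branched structures inside cortical cells that the plant encloses in a membrane of its own. Across this membrane the plant takes up phosphate and nitrogen released by the fungus, and it pays with fatty acids and sugars. A set of plant genes for recognition of the fungus, for the regulators that act downstream, and for the transporters and lipid enzymes of arbuscule-containing cells is conserved among host species. The measurements described here show how roots of the foxtail millet (Setaria italica) cultivar TT8, Taitung 8 from Taiwan, differed with and without such a fungus. They cover 24880 genes, which are those with a mean value of 5 or more over the 8 TT8 libraries, out of 25318 genes with values for TT8 and 26785 with values for any of the 3 lines of the series.

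The AMF-treated plants were inoculated with the fungus Claroideoglomus etunicatum at 2 weeks of age, when the seedlings were moved to cones, and the mock-treated plants were handled in the same way without the fungus. All plants grew under a light and dark cycle, and RNA was made from part of each root system at 6 weeks after inoculation. Each group has 4 libraries, described by the study as biological replicates, and the whole series has 24 libraries, with the landraces Hanevalval and ICE36 treated in the same way. The values are normalized read counts, that is, reads per gene divided by a factor for each library. They could be turned back into whole reads, which gave 16829736, 18996695, 19557223 and 18992632 reads on genes for AMF-treated replicates 1 to 4 and 16543884, 16864323, 18385908 and 16891681 for mock-treated replicates 1 to 4.

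One control library stood apart from the others before any gene was tested. On the first principal component, which held 69.47% of the variance over the 8 libraries, AMF-treated replicates 1 to 4 lay at 51.8, 93.0, 93.7 and 106.8, and mock-treated replicates 1 to 4 at -126.9, -110.4, -101.4 and -6.65. The groups did not overlap (two-sided exact permutation test, p = 0.0286, the smallest that 4 libraries against 4 can give), but on this component mock replicate 4 was nearer to AMF replicate 1 than to any other mock library. Across genes its log values correlated with those of the AMF-treated libraries at 0.933 to 0.958 and with those of the other mock libraries at 0.921 to 0.948, while mock replicates 1 to 3 correlated with each other at 0.963 to 0.976. These correlations are across genes, which are not replicates, and are given as a description. Its values also summed to 20011977, within the 18355397 to 20860887 of the AMF-treated libraries and above the 15404350 to 16455163 of mock replicates 1 to 3.

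Mock replicate 4 resembled the AMF-treated roots unevenly. Over the upregulated genes defined below, its median place on the log2 scale was 0.60, where 0 is the mean of mock replicates 1 to 3 and 1 the mean of the AMF-treated libraries, and 59.4% of these genes were nearer to the AMF-treated mean. Over the downregulated genes the median place was 0.42, and 38.6% were nearer. Its median place was 0.52 over all 4150 called genes and 0.31 over the 44 called genes of the AM-conserved list described below. Besides, 135 genes had at most 3 reads in each of mock replicates 1 to 3 and an AMF-treated mean of 50 or more. For these the value in mock replicate 4 was 2.18% of the AMF-treated mean in the median gene, with quartiles of 1.31% and 4.42%. Of the 135 genes, 78 had more than 3 reads in mock replicate 4. The choice of genes low in the other controls left only this control free to hold more. The 31 of the 135 genes with an AMF-treated mean of 500 or more held 0.448% to 3.81% of that mean in this library. Such shares are on the linear scale and cannot be set beside places on the log2 scale, where a low share can go with a middle place. What set this library apart was not tested. The counts below are given with and without it, and so are the values of many named genes. Among the 51 named genes, leaving it out changed the call of 2, DMI3 and SETIT_028842mg.

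**Figure D1:**
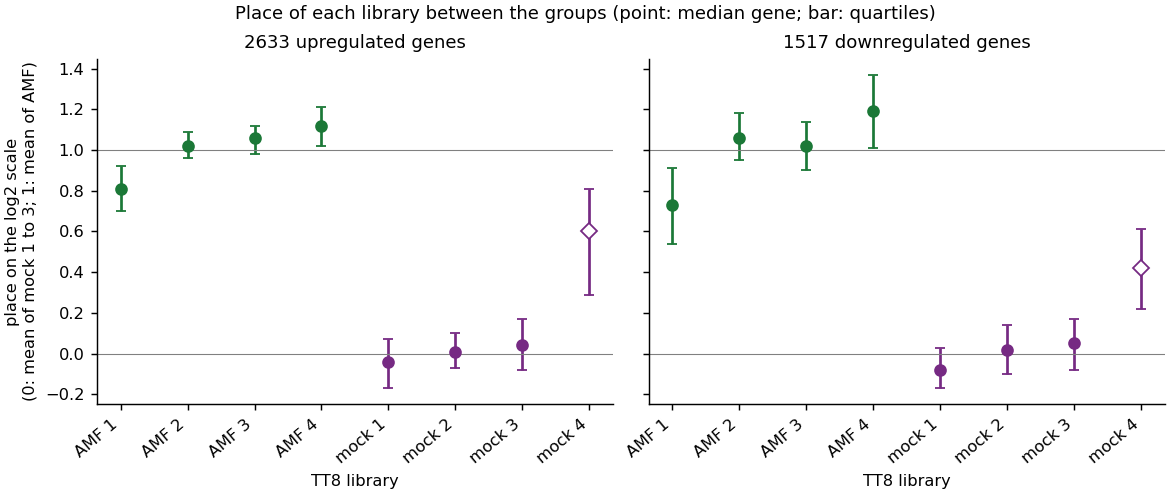
Place of each TT8 library between the groups over the upregulated genes (left) and the downregulated genes (right), with AMF-treated libraries in green, mock-treated libraries in purple and mock replicate 4 as an open diamond. Points are medians over genes and bars are quartiles on a scale where 0 is the mean of mock replicates 1 to 3 and 1 the mean of the AMF-treated libraries. Mock replicate 4 sits at 0.60 and 0.42, and AMF replicate 1 at 0.81 and 0.73 is the lowest of its group in both panels.

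In AMF-treated TT8 roots, 2633 genes rose and 1517 fell, which is 10.6% and 6.1% of the genes tested (limma on log2(value + 1), p adjusted by Benjamini-Hochberg no higher than 0.05, with at least a 2-fold change). With the authors' size factors the upregulated genes changed more, with a median log2 fold change of 1.80 against -1.45 among the downregulated ones. Scaling to equal library totals puts the median log2 change of all genes at -0.25, and the medians of the called genes were not computed with it. A change of 8-fold or more was seen in 530 upregulated and 25 downregulated genes, and of 32-fold or more in 171 and 2. In 166 of the upregulated genes all 4 mock-treated libraries held at most 3 reads, so that these passed the filter on low values only through the AMF-treated libraries, and in 22 of the downregulated genes this was so of the AMF-treated libraries. Genes with a mean value of 5000 or more numbered 549, and 21.7% of them rose and 6.92% fell, against 10.1% and 6.74% of the 7037 genes with means under 50. These levels are not corrected for gene length. In RNA from bulk root tissue, more cells of a type and more RNA per cell cannot be told apart.

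The 4 AMF-treated libraries all lay above the 4 mock-treated ones for 12.6% of the genes tested and all below for 12.1%, and this held for 66.3% of upregulated genes and 75.2% of downregulated genes. Without mock replicate 4, 3708 genes rose and 2285 fell, 14.9% and 9.18% of those tested. Of the original calls, 2601 upregulated (98.8%) and 1483 downregulated genes (97.8%) were called in the same direction without this library. Leaving out another library lowered the counts in most cases. Omitting mock replicate 1 gave 1785 rises and 878 falls, omitting mock replicate 2 gave 1356 and 712, and omitting mock replicate 3 gave 1398 and 811. Among the AMF-treated libraries, omitting replicate 2 gave 1417 and 813, omitting replicate 3 gave 1277 and 789, and omitting replicate 4 gave 1240 and 753, while 2866 and 1913 were called when replicate 1 was omitted. The share of calls that rose was 63.4% with the authors' size factors, 54.6% after quantile normalization and 46.4% after scaling to equal library totals (CPM). The quantile and CPM scalings put the median change over all genes at -0.12 and -0.25 on the log2 scale, so that the balance of rises and falls depends on the scaling.

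The genes described next are those of the study's tables of orthologs of AM-conserved genes. Of 54 such genes, 53 had values for TT8 and all 53 were tested, with 40 upregulated, 4 downregulated and 9 that passed in neither direction, beside the 10.6% upregulated and 6.1% downregulated of all genes tested. The 4 falls are a share close to that of all genes. Their median log2 fold change was 3.63, where that of all genes tested was -0.01, and without mock replicate 4 the counts were 41 and 5. Among them, the transporters and lipid enzymes of the arbuscule had 10 upregulated and 1 downregulated among 11 genes, with a median of 5.38, and the same counts without mock replicate 4. With CPM 8 of the 11 rose and after quantile normalization 9 did, with 1 fall under each.

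SiPHT1;9 (SETIT_004288mg) encodes a phosphate transporter of the clade that takes up phosphate from the arbuscule in other plants. Its normalized read count was 2353, 3682, 2583 and 1940 in AMF-treated replicates 1 to 4, against 1.86, 0.976, 0.853 and 74.6 in mock-treated replicates 1 to 4. The groups were far apart, and mock replicate 4 held the highest control value, 2.83% of the AMF-treated mean. The log2 fold change was 8.92 (SE 1.06, limma adjusted p = 9.9e-04), and 10.20 without mock replicate 4 (adjusted p = 5.5e-08).

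Enzymes that make and export lipid moved in the same direction. RAM2 (SETIT_035307mg), a glycerol-3-phosphate acyltransferase that makes the lipid precursor supplied to the fungus, had 865, 1248, 652 and 632 in AMF-treated roots and 0.931, 0.976, 0 and 19.0 in mock-treated roots, a log2 change of 8.11 (SE 0.81, adjusted p = 3.3e-04). FatM (SETIT_003998mg), the acyl carrier protein thioesterase that releases the fatty acids used by RAM2, had 645, 1025, 621 and 647 in AMF-treated roots and 6.52, 2.93, 0.853 and 24.9 in mock-treated roots, a log2 change of 6.87 (SE 0.68, adjusted p = 3.3e-04). In both genes AMF replicate 2 was the highest library and mock replicate 4 the highest control, with no overlap between groups. Without mock replicate 4 the log2 change of FatM was 7.56, and RAM2 was left with 1 read or none in each control. STR (SETIT_015555mg) and STR2 (SETIT_003786mg) encode half-size ABCG transporters that work as a pair in the membrane around the arbuscule. STR had 515, 823, 453 and 517 in AMF-treated roots and 53.1, 49.8, 45.2 and 37.9 in mock-treated roots (log2 fold change 3.58, SE 0.21, adjusted p = 2.0e-05). STR2 had 432, 696, 396 and 354 in AMF-treated roots and 12.1, 7.81, 8.53 and 11.9 in mock-treated roots (log2 fold change 5.38, SE 0.26, adjusted p = 1.0e-05). For this pair mock replicate 4 lay within or below the range of the other controls, and the values without it were 3.48 for STR and 5.46 for STR2.

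Nitrogen transporters of the list rose over a wide range of size. The nitrate transporter ntr1 (SETIT_004857mg) had 780, 946, 604 and 581 in AMF-treated roots and 7.45, 9.76, 17.1 and 42.7 in mock-treated roots, a log2 change of 5.45 (SE 0.46, adjusted p = 1.4e-04). The ammonium transporter AMT3;1 (SETIT_004697mg) had 3151, 4881, 3065 and 2706 in AMF-treated roots and a clear level in the controls too, with 286, 334, 154 and 425 in mock-treated roots, a log2 change of 3.57 (SE 0.31, adjusted p = 1.5e-04). AMT2;1 (SETIT_024947mg) had 856, 1226, 1434 and 1757 in AMF-treated roots and 627, 599, 553 and 685 in mock-treated roots. Its log2 fold change of 1.05 (SE 0.20, adjusted p = 0.0105) was just past the 2-fold threshold, and it was not called without AMF replicate 3 (1.00, adjusted p = 0.0388) or 4 (0.90), with CPM (0.82) or after quantile normalization (0.92). The groups of all 3 genes were separate, and without mock replicate 4 the log2 changes were 5.92 for ntr1, 3.77 for AMT3;1 and 1.11 for AMT2;1.

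ABCB12 (SETIT_012264mg) and ABCB2 (SETIT_015752mg), both ABC transporters, had log2 fold changes of 5.87 (SE 0.38, adjusted p = 4.0e-05) and 1.09 (SE 0.23, adjusted p = 0.0133). ABCB12 had 598, 898, 561 and 554 in AMF-treated roots and 10.2, 7.81, 5.12 and 22.5 in mock-treated roots. ABCB2 had 153, 183, 146 and 134 in AMF-treated roots and 65.2, 111.2, 56.3 and 62.8 in mock-treated roots, a smaller gap in which mock replicate 2 was the highest control. ABCB2 missed the 2-fold threshold without mock replicate 3 (0.98) and with CPM (0.86), and was not called in the fit over 24 libraries (adjusted p = 0.112). Without mock replicate 4 the log2 changes were 6.24 for ABCB12 and 1.03 for ABCB2. An oligopeptide transporter (SETIT_026160mg) was the only member that fell, with 488, 389, 545 and 462 in AMF-treated roots and 1332, 1400, 896 and 723 in mock-treated roots, by 1.16 on the log2 scale (SE 0.22, adjusted p = 0.00992), or by 1.34 without mock replicate 4.

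**Figure D2:**
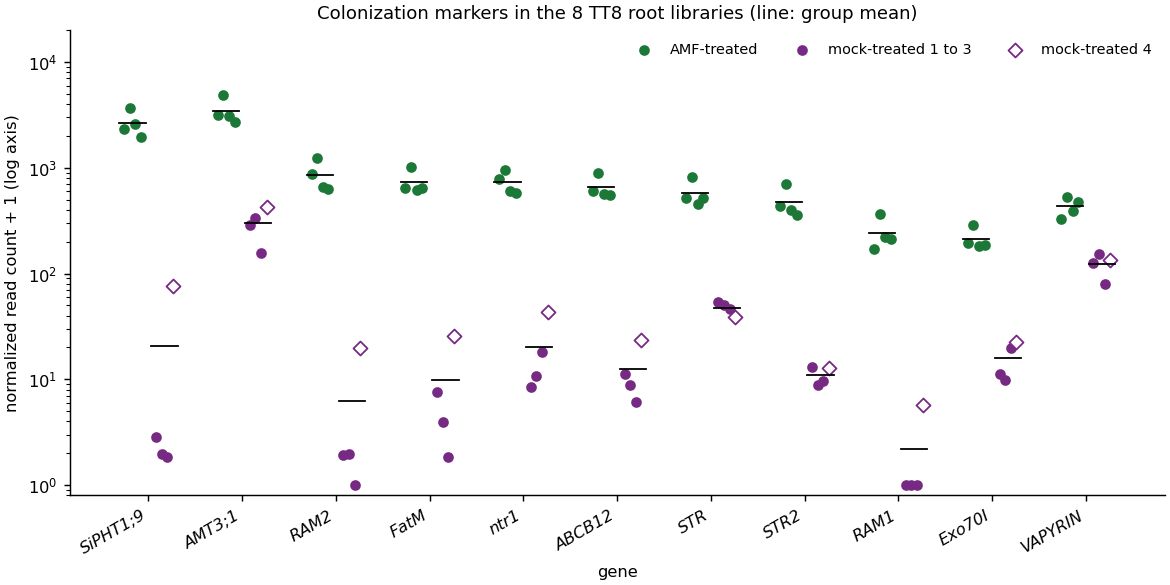
Normalized read count plus 1 on a log axis for 11 marker genes of colonized roots in each TT8 library, with AMF-treated libraries in green on the left of each gene and mock-treated libraries in purple on the right, mock replicate 4 as an open diamond and group means as lines. SiPHT1;9 is at 1940 to 3682 in AMF-treated roots and at 0.853 to 74.6 in mock-treated roots, and in 10 of the 11 genes mock replicate 4 is not the lowest control.

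Summed over these 11 markers, AMF-treated replicates 1 to 4 held 10024, 15373, 9731 and 8806, and mock-treated replicates 1 to 4 held 514.0, 575.7, 329.2 and 818.6. The markers were chosen as genes known to rise in colonized roots, with earlier results of these data known, so the sums are a description. As a share of all values this was 0.0546%, 0.0783%, 0.0475% and 0.0422% in AMF-treated roots and 0.00334%, 0.0035%, 0.0021% and 0.00409% in mock-treated roots. The mock-treated libraries were well below every AMF-treated one. In mock replicates 1 to 3 the sum consisted mainly of AMT3;1, VAPYRIN and STR. In mock replicate 4 the largest were AMT3;1 (425.3), VAPYRIN (133.9) and SiPHT1;9 (74.6), and ntr1 (42.7) was above STR (37.9). RAM1 had no read in mock replicates 1 to 3.

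The genes for accommodation of the fungus inside the cell rose as well. VAPYRIN (SETIT_035002mg), an ankyrin repeat protein needed for fungal entry in other hosts, had 327, 523, 392 and 479 in AMF-treated roots and 125.7, 153.2, 78.5 and 133.9 in mock-treated roots, a log2 change of 1.82 (SE 0.23, adjusted p = 0.0015). Exo70I (SETIT_015320mg), a subunit of the exocyst that delivers membrane around the arbuscule in Medicago, had 192, 288, 182 and 187 in AMF-treated roots and 10.2, 8.78, 18.8 and 21.3 in mock-treated roots, a log2 change of 3.82 (SE 0.31, adjusted p = 1.1e-04). Both genes had separate groups, and without mock replicate 4 the values were 1.87 and 4.01.

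Of 9 transcription factors of the list, 8 rose and none fell, beside 10.6% and 6.1% of all genes tested. Leaving out mock replicate 4 kept these counts. The GRAS family regulator RAM1 (SETIT_027708mg), which controls lipid genes of the arbuscule in Medicago, had 168, 363, 221 and 210 in AMF-treated roots and 0, 0, 0 and 4.74 in mock-treated roots, so that its log2 fold change of 7.23 (SE 0.58, adjusted p = 1.1e-04) rests on a control level of a few reads. TF72 (SETIT_021890mg), another GRAS protein, had 116.7, 281, 158 and 142 in AMF-treated roots and 6.52, 9.76, 6.82 and 13.03 in mock-treated roots (log2 fold change 4.09, SE 0.33, adjusted p = 1.1e-04). In both genes the highest control was mock replicate 4 and the groups did not overlap. Without it the log2 change of TF72 was 4.27. RAD1 (SETIT_000959mg), a GRAS protein that binds RAM1 in other hosts, behaved differently in that library. It had 1249, 1720, 1432 and 1539 in AMF-treated roots and 149, 217, 208 and 1285 in mock-treated roots, so the groups overlapped through mock replicate 4 alone. Its log2 fold change was 2.27 (SE 0.58, adjusted p = 0.0227) and 2.96 without mock replicate 4 (adjusted p = 6.1e-06). The call was lost without any one of mock replicates 1, 2 and 3 and AMF replicates 2, 3 and 4, at adjusted p of 0.0546 to 0.0676, and with edgeR on the recovered reads (1.67, adjusted p = 0.0788).

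AP2 domain proteins made up much of the rest. AP2c (SETIT_038848mg) had 42.5, 113.7, 90.2 and 83.5 in AMF-treated roots and 5.59, 7.81, 5.12 and 3.55 in mock-treated roots (log2 fold change 3.63, SE 0.35, adjusted p = 2.9e-04). A further AP2 gene (SETIT_007857mg) rose most among them, with 125.4, 292, 138 and 154 in AMF-treated roots and 0, 0, 0 and 5.92 in mock-treated roots (log2 fold change 6.69, SE 0.65, adjusted p = 2.8e-04). AP2d (SETIT_032213mg) was low throughout, with 15.3, 26.9, 12.6 and 20.9 in AMF-treated roots and 0, 0.976, 0.853 and 10.7 in mock-treated roots. Its log2 fold change of 2.91 (SE 0.70, adjusted p = 0.0197) lost its call without mock replicate 2 or 3 or AMF replicate 2 or 4, with adjusted p of 0.0578 to 0.059. CBF1 (SETIT_023636mg), a CCAAT-binding factor, had 399, 386, 305 and 375 in AMF-treated roots and 41.0, 79.0, 103 and 161 in mock-treated roots (log2 fold change 2.07, SE 0.35, adjusted p = 0.00686). None of these 4 genes had overlapping groups, and without mock replicate 4 the log2 changes were 3.48 for AP2c, 3.64 for AP2d and 2.37 for CBF1.

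Among the lists of AM-conserved genes, that of recognition and signaling, the earliest steps, had the lowest median log2 change, 0.82. Of 5 genes 1 rose and none fell, beside 10.6% and 6.1% of all genes tested, and 5 genes are too few for a comparison. The called gene was CYCLOPS (SETIT_008637mg), the DNA-binding protein that the calcium-dependent kinase DMI3 activates in legumes. It had 16.4, 11.4, 12.6 and 13.2 in AMF-treated roots and 0.931, 2.93, 5.12 and 3.55 in mock-treated roots, a log2 change of 1.90 (SE 0.41, adjusted p = 0.0139), which was 0.95 with a pseudocount of 8. DMI3 itself (SETIT_021787mg) had 1203, 1266, 1524 and 1642 in AMF-treated roots and 336, 777, 800.0 and 1430 in mock-treated roots, and the groups overlapped through mock replicate 4. Its log2 fold change of 0.92 did not pass (SE 0.37, adjusted p = 0.0873), whereas without mock replicate 4 it was 1.23 and passed (adjusted p = 0.00859). The receptor-like kinase DMI2 (SETIT_029334mg) had a log2 change of 0.25 (SE 0.11, adjusted p = 0.124), and the Nod-factor receptor ortholog NFR5 (SETIT_038965mg) one of 0.82 (SE 0.32, adjusted p = 0.0783). The cation channel Castor (SETIT_034161mg) had 970, 1068, 1132 and 1136 in AMF-treated roots and 1084, 1059, 1054 and 1067 in mock-treated roots, a log2 change of 0.01 (SE 0.10, adjusted p = 0.94) whose sign changed with the scaling.

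Genes for secreted proteins had the highest median log2 fold change of the 14 lists, 7.24. Of 9 genes 8 rose and none fell, beside 10.6% and 6.1% of all genes tested, with the same counts without mock replicate 4. A subtilisin inhibitor gene (SETIT_019796mg), for a protein class that blocks serine proteases, had 4940, 7576, 4577 and 4375 in AMF-treated roots and 0, 0, 0 and 106.6 in mock-treated roots, a log2 change of 10.67 (SE 1.38, adjusted p = 0.00164). A germin-like protein gene (SETIT_032400mg), of a family of cell wall glycoproteins, had 2696, 4147, 2941 and 2408 in AMF-treated roots and 0, 0, 0 and 79.4 in mock-treated roots, with a log2 change of 9.96 (SE 1.30, adjusted p = 0.00169). These were the highest rises of all 1147 upregulated genes with a mean of 50 or more and separate groups. In both, every read of the controls came from mock replicate 4, at 1.99% and 2.6% of the AMF-treated mean. The AMF-treated and mock-treated means were 5366.8 and 26.66 for the inhibitor gene and 3047.7 and 19.84 for the germin-like gene. The log2 changes given are larger than those of the ratios of these means. Class III chitinases, which cleave the chitin of fungal walls, differed within the family. SETIT_033231mg, SETIT_002402mg and SETIT_002395mg rose with log2 fold changes of 7.53, 7.26 and 5.10, while SETIT_021498mg had a log2 change of -0.60 (adjusted p = 0.0699) with 1756, 1340, 1541 and 1466 in AMF-treated roots and 1539, 3038, 2995 and 2008 in mock-treated roots. The study lists SETIT_033231mg as falling in TT8, the opposite direction to these values, whose means were 1647.8 in AMF-treated and 11.9 in mock-treated roots. Why the directions differ was not tested. Reads of such close family members may have been divided between copies in the counting, and this was not tested either.

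Plastocyanin-like proteins are small copper-binding proteins at the cell surface, and their family includes the AM marker BCP1, whose ortholog was not analysed here in TT8. Of 5 tested genes 4 rose and 1 fell, beside 10.6% and 6.1% of all genes tested, with the same counts without mock replicate 4. SETIT_039030mg had 554, 858, 321 and 461 in AMF-treated roots and 0, 0, 0 and 9.48 in mock-treated roots (log2 fold change 8.16, SE 0.75, adjusted p = 2.2e-04). SETIT_039259mg had 185, 198, 154 and 108.7 in AMF-treated roots and 0, 0.976, 0 and 8.29 in mock-treated roots (log2 fold change 6.26, SE 0.67, adjusted p = 5.2e-04). SETIT_007296mg fell by 1.73 on the log2 scale (SE 0.52, adjusted p = 0.0375), but its groups overlapped, with 37.1, 99.2, 27.3 and 40.6 in AMF-treated roots and 329, 217, 83.6 and 88.9 in mock-treated roots. This fall was not called without mock replicate 1, 2 or 3 or AMF replicate 1, 3 or 4 (adjusted p of 0.0509 to 0.103).

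The remaining 12 conserved genes were mixed, with 7 upregulated and 2 downregulated, beside 10.6% and 6.1% of all genes tested. Without mock replicate 4 the counts were 7 and 3. A heparan-alpha-glucosaminide N-acetyltransferase-like gene (SETIT_028233mg) had 527, 826, 462 and 612 in AMF-treated roots and 11.2, 4.88, 4.26 and 17.8 in mock-treated roots (log2 fold change 6.02, SE 0.41, adjusted p = 5.1e-05). A late embryogenesis abundant (LEA) protein gene (SETIT_039206mg) held 441 reads over the 4 AMF-treated libraries and 2 reads over the 4 mock-treated ones, both in mock replicate 4. After division by the size factors this is a ratio of 242, with a 95% counting interval of 66.6 to 2010 that covers counting error only. Another LEA gene (SETIT_023221mg) fell by 1.21 on the log2 scale (SE 0.22, adjusted p = 0.00889), with 157, 129, 151 and 205 in AMF-treated roots and 441, 466, 358 and 250.0 in mock-treated roots. A GDSL-like lipase gene (SETIT_017497mg) fell by 1.22 (SE 0.26, adjusted p = 0.0141), with 524, 334, 368 and 291 in AMF-treated roots and 1105, 813, 1142 and 546 in mock-treated roots. In both falls mock replicate 4 was the control nearest to the AMF-treated libraries, and the groups were separate.

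**Figure D3:**
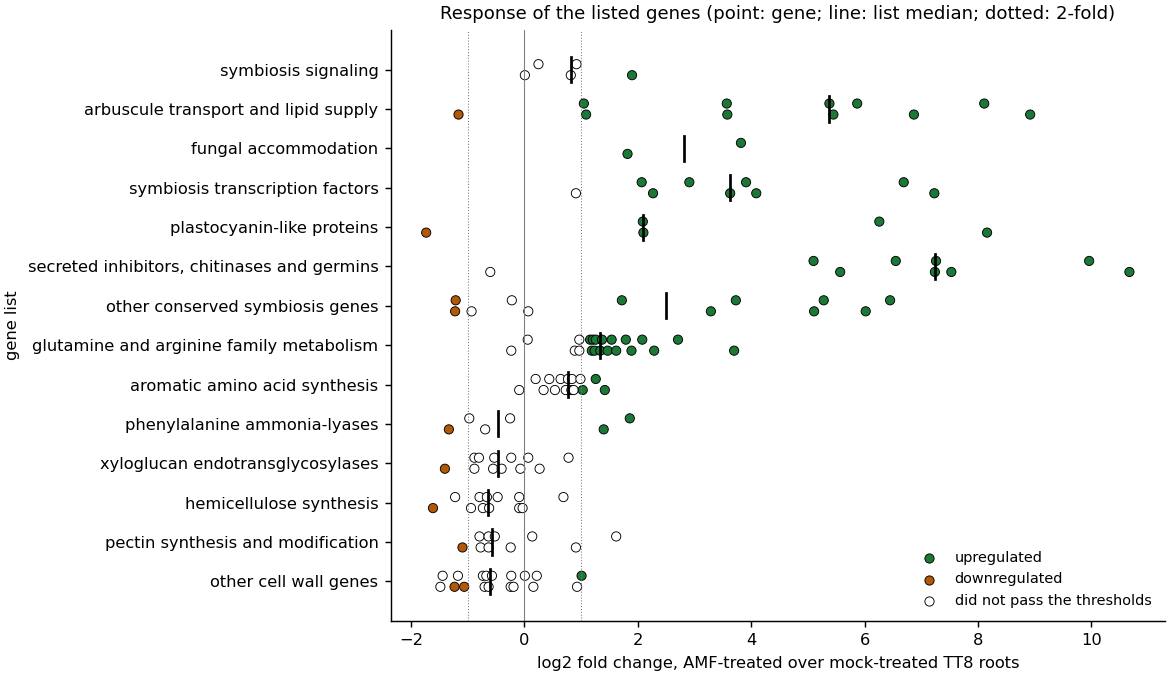
Log2 fold change of AMF-treated over mock-treated TT8 roots for each tested gene of 14 lists, one row per list, with list medians as vertical lines and dotted lines at a 2-fold change. Filled points passed the thresholds, in green for upregulated and orange for downregulated genes. The secreted proteins have the highest median, 7.24, and the hemicellulose list has the lowest, -0.64.

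The study also tabulated genes of amino acid metabolism and of the cell wall that it had chosen on libraries of this series, so the counts of these lists are not independent evidence of their direction. Fungal nitrogen reaches the root as ammonium, which glutamine synthetase binds into glutamine, and the arginine pathway starts from glutamate through N-acetylglutamate. Of 21 genes of glutamine and arginine family metabolism, 16 rose and none fell, beside 10.6% and 6.1% of all genes tested, with a median log2 fold change of 1.34. N-acetylglutamate synthase (SETIT_017738mg), the entry step of arginine synthesis, had 680, 1190, 1333 and 1768 in AMF-treated roots and 34.5, 54.6, 79.3 and 426.5 in mock-treated roots, a log2 change of 3.70 (SE 0.68, adjusted p = 0.0091). A glutamine amidotransferase gene (SETIT_017936mg) had 22.9, 54.8, 54.5 and 69.2 in AMF-treated roots and 3.72, 3.90, 8.53 and 11.9 in mock-treated roots, with a log2 change of 2.71 (SE 0.45, adjusted p = 0.0064). Both were highest in AMF replicate 4 and had separate groups, and without mock replicate 4 the log2 changes were 4.44 and 2.98.

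Other genes of the arginine branch rose by smaller amounts. Log2 fold changes were 1.54 for acetylornithine transaminase (SETIT_021951mg), 1.16 for argininosuccinate synthase (SETIT_021906mg) and 1.62 for argininosuccinate lyase SETIT_021759mg, whose groups overlapped. Amino acid acetyltransferase (SETIT_034795mg) had 1.34 (limma adjusted p = 0.0485), also with overlapping groups. Glutamate N-acetyltransferase (SETIT_035137mg) had 0.97 (limma adjusted p = 0.00899), under the 2-fold threshold. A second argininosuccinate lyase gene, SETIT_035209mg, had 0.06 (adjusted p = 0.706), and ornithine aminotransferase (SETIT_035474mg) had -0.23 (adjusted p = 0.225). Among 3 glutamine synthetase genes, SETIT_022118mg had 2371, 3647, 4153 and 3394 in AMF-treated roots and 506, 674, 489 and 2306 in mock-treated roots (log2 fold change 2.08, adjusted p = 0.0152), so that mock replicate 4 came close to the AMF-treated libraries. The most counted of them, SETIT_017628mg, had 13978, 22326, 22710 and 26565 in AMF-treated roots and 8864, 8654, 6337 and 11689 in mock-treated roots (log2 fold change 1.26, adjusted p = 0.013), and SETIT_036352mg had a log2 change of 0.89 (adjusted p = 0.00618), under the 2-fold threshold.

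Proline oxidase (SETIT_035342mg), which breaks down proline, had 10988, 11694, 11775 and 11589 in AMF-treated roots and 670, 1483, 2568 and 11909 in mock-treated roots. Mock replicate 4 held the highest value of all 8 libraries, and the log2 fold change was 2.29 (SE 0.72, adjusted p = 0.042). Mock replicate 4 stood nearer to the AMF-treated mean in 11 of the 16 upregulated genes of this list, with a median place of 0.65. This is close to all upregulated genes, where 59.4% were nearer and the median place was 0.60. Among all called genes it was nearer in 2150 of 4150, with a median place of 0.52. The called AM-conserved genes had 11 of 44 and a median place of 0.31. The number of upregulated genes in the list was 18 without mock replicate 4 and 10 without mock replicate 2, AMF replicate 2 or AMF replicate 4. It was 13 with CPM and 11 after quantile normalization.

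**Figure D4:**
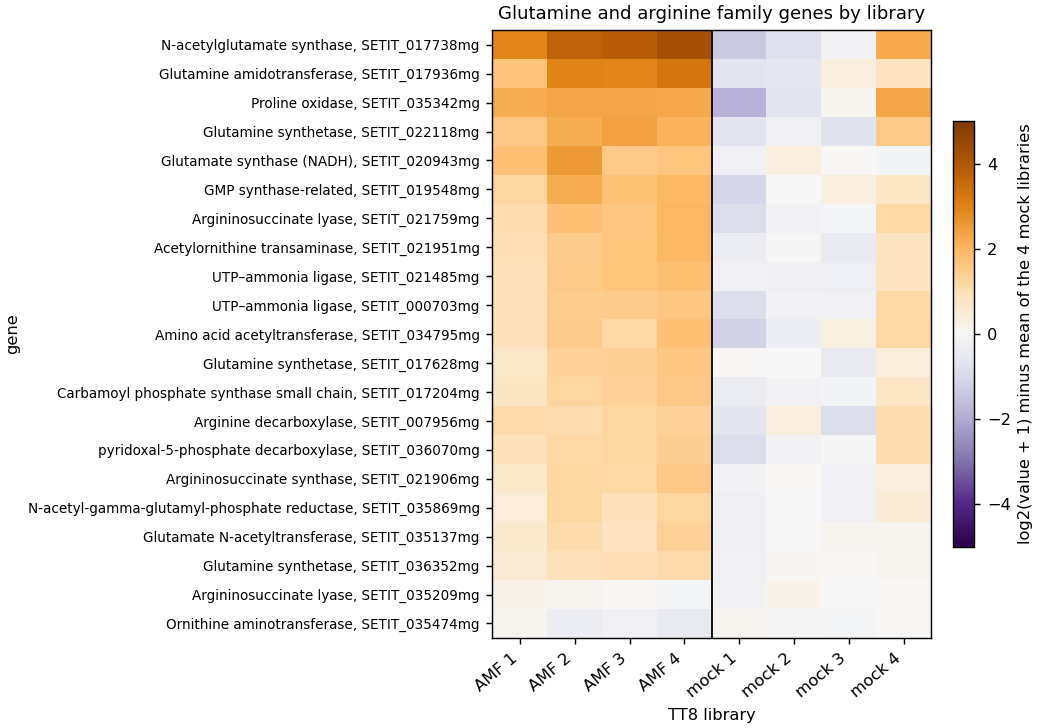
Log2(value + 1) minus the mean of the 4 mock-treated libraries for 21 glutamine and arginine family genes (rows, ordered by log2 fold change) in the 4 AMF-treated (left) and 4 mock-treated (right) TT8 libraries, with higher values in orange and lower values in purple. The rows run from N-acetylglutamate synthase at 3.70 to ornithine aminotransferase at -0.23, and mock replicate 4 is orange in many of the rows where AMF-treated libraries are.

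Aromatic amino acids are made through the shikimate pathway. Of 15 genes 3 rose and none fell, beside 10.6% and 6.1% of all genes tested, and 4 rose without mock replicate 4. An adjusted p of at most 0.05 was reached by 11 of the 15, beside 7252 of all 24880 genes, and the median log2 fold change was 0.77. Anthranilate synthase alpha subunit (SETIT_034777mg), the first step towards tryptophan, had 3631, 5590, 4509 and 5089 in AMF-treated roots and 841, 1662, 1467 and 4429 in mock-treated roots (log2 fold change 1.42, SE 0.43, adjusted p = 0.0375). The gene for 3-phosphoshikimate 1-carboxyvinyltransferase (SETIT_006296mg) had 3107, 4658, 4125 and 4549 in AMF-treated roots and 1399, 1537, 1113 and 3438 in mock-treated roots (log2 fold change 1.26, SE 0.32, adjusted p = 0.0225). In both genes the groups overlapped through mock replicate 4, and without it the values were 1.87 (adjusted p = 4.8e-04) and 1.60 (adjusted p = 2.1e-04). No gene of the list was called without any one of mock replicates 1, 2 and 3 or AMF replicates 2, 3 and 4, while 5 were called without AMF replicate 1.

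Phenylalanine ammonia-lyases, which open the phenylpropanoid pathway to lignin and other phenolics, moved in opposite directions. SETIT_016475mg had 4510, 7402, 7865 and 10776 in AMF-treated roots and 1800, 3046, 849 and 3489 in mock-treated roots, a log2 change of 1.86 (SE 0.44, adjusted p = 0.0186). SETIT_009345mg had 1360.0, 1944, 2115 and 3133 in AMF-treated roots and 871, 710.3, 478 and 1211 in mock-treated roots, with a log2 change of 1.40 (SE 0.31, adjusted p = 0.016). SETIT_009509mg fell by 1.33 on the log2 scale (SE 0.26, adjusted p = 0.0111), with 3901, 5180, 4774 and 5046 in AMF-treated roots and 16099, 15037, 7073 and 11274 in mock-treated roots. All 3 had separate groups, and without mock replicate 4 their log2 changes were 2.13, 1.62 and -1.35. The other 3 genes had log2 changes of -0.97, -0.69 and -0.25 and did not pass, and the number of falls was 2 with CPM, 3 after quantile normalization and 2 with DESeq2. SETIT_016475mg was not called without AMF replicate 2, 3 or 4 (adjusted p of 0.0522 to 0.0578), nor SETIT_009345mg without mock replicate 2 (adjusted p = 0.0501). Reads may have been divided among these similar genes, which was not tested.

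Of 52 tested genes of the cell wall list, 1 rose and 5 fell, beside 10.6% and 6.1% of all genes tested, with a median log2 fold change of -0.56, and without mock replicate 4 the counts were 3 and 7. Among 12 xyloglucan endotransglycosylase genes, for enzymes that cut and rejoin xyloglucan chains, only SETIT_014233mg fell, by 1.40 on the log2 scale (SE 0.45, adjusted p = 0.0448), with 13.1, 43.4, 29.4 and 16.5 in AMF-treated roots and 85.7, 99.5, 34.1 and 52.1 in mock-treated roots. Its groups overlapped, and the call was lost without mock replicate 1 or 2 or AMF replicate 1, 3 or 4. The largest fall of the list was that of a glucomannan 4-beta-mannosyltransferase gene (SETIT_034919mg), for the backbone of a hemicellulose, with 387, 340, 406 and 238 in AMF-treated roots and 1233, 1285, 813 and 877 in mock-treated roots (log2 fold change -1.61, SE 0.21, adjusted p = 0.00187).

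A pectin acetylesterase gene (SETIT_035783mg) fell by 1.09 on the log2 scale (SE 0.17, adjusted p = 0.0048), with 283, 263, 272 and 197 in AMF-treated roots and 613, 484, 641 and 434 in mock-treated roots. A beta-glucan glucosyltransferase gene (SETIT_000021mg), of callose synthesis, fell by 1.23 (SE 0.31, adjusted p = 0.022), with overlapping groups of 592, 317, 322 and 218 in AMF-treated roots and 1051, 981, 681 and 565 in mock-treated roots. A beta-glucosidase-related gene (SETIT_027450mg) fell by 1.06 (SE 0.26, adjusted p = 0.0198) and a D-alanine-D-alanine ligase gene (SETIT_028842mg) rose by 1.01 (SE 0.16, adjusted p = 0.00427), both with separate groups. The last stood at the threshold and was not called with CPM (0.78), after quantile normalization (0.86) or without mock replicate 3 (0.92), mock replicate 4 (adjusted p = 0.00172), AMF replicate 2 (0.93) or AMF replicate 4 (0.97). The SETIT_000021mg fall lost its call without mock replicate 1, 2 or 3 or AMF replicate 2, 3 or 4, that of SETIT_027450mg without mock replicate 1 or 2 or AMF replicate 1 or 2, and that of SETIT_035783mg without AMF replicate 4. Over the whole list, 0 rose and 9 fell with CPM, and leaving out single libraries gave 0 to 3 rises and 2 to 7 falls.

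Outside these lists, the strongest rises included 2 genes without a description in the sources used here. SETIT_011885mg had 1996, 2313, 2438 and 2310 in AMF-treated roots and 0, 0.976, 0 and 14.2 in mock-treated roots (log2 fold change 9.91, SE 0.77, adjusted p = 8.9e-05). SETIT_005009mg had 2392, 3814, 2118 and 2017 in AMF-treated roots and 0, 0, 0 and 45.0 in mock-treated roots (log2 fold change 9.91, SE 1.14, adjusted p = 8.0e-04). In both genes nearly all reads of the controls came from mock replicate 4. The deepest falls were those of SETIT_013490mg, with 4.36, 3.10, 1.05 and 5.49 in AMF-treated roots and 129, 270.3, 219 and 238 in mock-treated roots (log2 fold change -5.65, SE 0.40, adjusted p = 5.7e-05), and of SETIT_015030mg, with 29.5, 31.0, 23.1 and 14.3 in AMF-treated roots and 686, 1235, 728 and 789 in mock-treated roots (log2 fold change -5.10, SE 0.28, adjusted p = 1.5e-05). For both of these, mock replicate 4 lay within the range of the other controls.

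Whether the response of TT8 differed from that of the other lines was tested as a difference of fold changes in a limma model over all 24 libraries, with each response taken within its own line. It differed from Hanevalval in 15.2% of 23557 genes (2075 with a higher and 1514 with a lower log2 fold change in TT8) and from ICE36 in 14.3% of 23492 (1905 and 1448). Among the 11 transport and lipid genes, the log2 fold change in TT8 was higher than in Hanevalval in 7 and lower in 1, and higher than in ICE36 in 5 and lower in 1. The 7 include ABCB2, which had 1.09 in TT8 and -1.85 in Hanevalval. Without mock replicate 4 of TT8 these counts were 9 and 1, and 8 and 1.

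The half-size transporter STR gave one of the clearest contrasts, with log2 fold changes of 3.58 in TT8, 1.20 in Hanevalval and 0.51 in ICE36, and differences of 2.38 (SE 0.32, adjusted p = 3.1e-04) and 3.06 (SE 0.32, adjusted p = 1.9e-05). FatM differed by 4.28 from Hanevalval (SE 1.06, adjusted p = 0.0117) and by 4.40 from ICE36 (SE 1.06, adjusted p = 0.0107). For SiPHT1;9 the differences of 4.19 (SE 1.62, adjusted p = 0.082) and 3.02 (SE 1.62, adjusted p = 0.219) did not pass with all libraries, and without mock replicate 4 of TT8 they were 5.47 (adjusted p = 0.00738) and 4.30 (adjusted p = 0.0287) and did. RAM2 was similar against Hanevalval, at 3.86 (SE 1.35, adjusted p = 0.0562) with all libraries and 4.78 (adjusted p = 0.00835) without that one. The Hanevalval libraries were widely spread too, and none of them was left out. Their SiPHT1;9 mean was 32.3 (SD 45.1) in mock-treated and 518.5 (SD 642.8) in AMF-treated roots. Their mock-treated RAM2 mean was 6.97 (SD 8.09). The larger differences thus rest on leaving out a control of TT8 alone. For AMT2;1 neither difference passed, at -0.21 (SE 0.47, adjusted p = 0.805) and 0.18 (SE 0.47, adjusted p = 0.832). The oligopeptide transporter had log2 fold changes of -1.16 in TT8, -0.03 in Hanevalval and 0.11 in ICE36, with differences of -1.14 (adjusted p = 0.0296) and -1.27 (adjusted p = 0.0182).

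**Figure D5:**
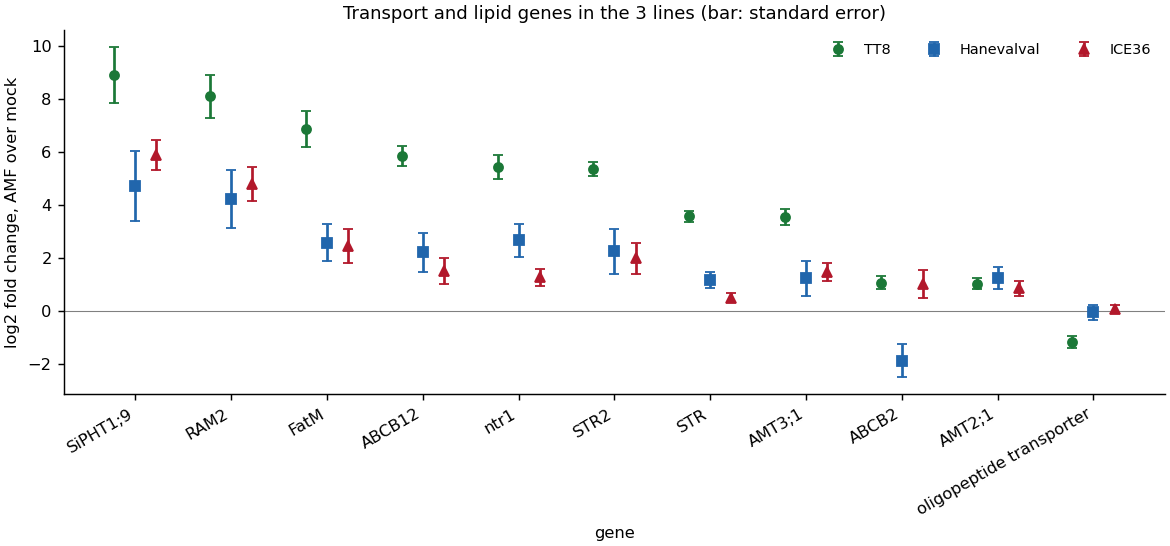
Log2 fold change of AMF-treated over mock-treated roots, with standard errors as bars, for the 11 transport and lipid genes in TT8 (green circles), Hanevalval (blue squares) and ICE36 (red triangles), from separate fits of 8 libraries a line. The points of TT8 lie above those of both other lines for 9 of the 11 genes, from SiPHT1;9 at 8.92 down to ABCB2 at 1.09, where ICE36 is at 1.03. This order is not a test. By the test of the difference TT8 was higher than Hanevalval in 7 genes and than ICE36 in 5, and SiPHT1;9 and RAM2 passed against neither line.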

How the data were processed

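Signal values were used as the authors deposited them, as 1 table of gene counts divided by DESeq2 size factors per line. Per the labels, reads were trimmed with Trimmomatic 0.38, aligned with HISAT2 2.1.0, counted with featureCounts 2.0.0 and normalized with DESeq2 1.26.0, and the study names the S. italica genome v2.0. The strand setting of the counting was not given in the sources used here, so overlapping antisense genes cannot be separated.

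TT8 columns held whole multiples of the value of 1 read (100% of values, tolerance 1e-06), which gave back the reads. Libraries were compared in R 4.3.3 by limma 3.58.1 with a trend in the variance, on values turned to log2(value + 1), over genes with a mean of at least 5. The pseudocount lowers the change of genes with few reads. The change is a difference of mean logs, so it can exceed the log of the ratio of group means where 1 control is far above the rest. A call needed a p no higher than 0.05 after Benjamini-Hochberg adjustment and a change of 2-fold or more. edgeR 4.0.16 and DESeq2 1.42.0 on the recovered reads, other scalings, filters and pseudocounts, a replicate block and the omission of each library were alternatives. Steps were tested on simulated data. No pair of libraries of a group was a repeat (smallest chi-square per gene 10), and 0 columns lacked a sample.

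The genes and lists were chosen with earlier results of these data known. Named genes are the AM-conserved genes with a symbol in the study, up to 2 called genes per direction and list with the largest change, and, among called genes with a mean of 50 or more and separate groups, the study-described ones of the top 10 and 2 others in each direction. Chitinases, glutamine synthetases and other members of the lists given for contrast were chosen after their values were seen. The identifiers matched 0 entries of the RefSeq gene table at hand, so positions, sequences, promoters and further gene descriptions were not analysed here. Where the control libraries hold 3 reads or fewer in all, a ratio of reads with an exact interval is given. Summaries used Python 3.11.15 with pandas 2.3.3, and plots used matplotlib 3.10.9. The labels do not say whether each library comes from 1 plant or several, so p-values measure the spread between these libraries.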

Additional observations from a re-analysis of the deposited data

Results flagged for a closer look

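A library stood far from the other 3 of its group in 19 of the 102 groups examined (both groups of 51 named genes), and in 14 of these it was mock replicate 4. The measure is the gap to the nearest library over the range of the group. Its usual rate of 5% assumes normally spread values, so it does not hold for controls near the floor. A group whose other 3 libraries hold no read is always flagged, so the count is a description. In mock replicate 4 the normalized read counts were 74.6 for SiPHT1;9, 19.0 for RAM2, 4.74 for RAM1, 1285 for RAD1, 10.7 for AP2d, 5.92 for the AP2 gene SETIT_007857mg, 9.48 and 8.29 for the plastocyanin-like genes SETIT_039030mg and SETIT_039259mg, 106.6 for the subtilisin inhibitor SETIT_019796mg, 79.4 for the germin-like SETIT_032400mg, 2.37 for the LEA gene SETIT_039206mg, 426.5 for the N-acetylglutamate synthase SETIT_017738mg, and 14.2 and 45.0 for SETIT_011885mg and SETIT_005009mg. All 14 were the highest control value and all 14 genes were upregulated. Named genes include the called genes with the largest changes, so this direction is a description too. AMF replicate 2 was the highest of its group for ABCB12 (898.4), FatM (1025), Exo70I (288) and SETIT_007857mg (292), and mock replicate 2 for ABCB2 (111.2).

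The response of TT8 differed from that of at least 1 other line, by the test of the difference, for 8 of the 11 transport and lipid genes. ABCB2 and AMT3;1 passed against Hanevalval alone. Of all genes tested, 15.2% differed against Hanevalval and 14.3% against ICE36. Against Hanevalval the TT8 log2 fold change was higher by 2.38 for STR, 3.11 for STR2, 3.64 for ABCB12, 2.94 for ABCB2, 4.28 for FatM, 2.31 for AMT3;1 and 2.76 for ntr1, and the oligopeptide transporter SETIT_026160mg had a difference of -1.14. Against ICE36 it was higher by 3.06 for STR, 3.38 for STR2, 4.35 for ABCB12, 4.40 for FatM and 4.16 for ntr1, with -1.27 for the oligopeptide transporter.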

How the results depend on the processing

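The count of upregulated genes stayed within 1.5 times the reported 2633 under the other pseudocount, scalings, filters and tools, from 2059 with edgeR to 3934 by adjusted p alone, and that of downregulated genes did so except in the settings named next. Downregulated genes numbered 2486 with CPM, 3318 by adjusted p alone and 2303 with DESeq2 without mock replicate 4, where 3774 genes rose; this last setting was chosen after seeing the data. Scaling to equal library totals (CPM) lowers the AMF-treated libraries and mock replicate 4 relative to mock replicates 1 to 3, whose values sum to less. Without single libraries the counts ranged from 1240 (without AMF replicate 4) to 3708 (without mock replicate 4) for upregulated genes and from 712 (without mock replicate 2) to 2285 (without mock replicate 4) for downregulated ones. The cause of the lower counts without the other libraries was not tested. DESeq2 and limma called 3903 genes in the same direction.

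The labels do not say whether replicate numbers pair the samples, and the main fit treats them as unpaired. Deviations of same-numbered libraries from their group means correlated across genes at 0.06, 0.08, -0.1 and 0.16, which cannot exclude a pairing. With the replicate block 2722 genes rose and 1495 fell and no call of a named gene changed. Of 1015 values of named genes under all alternatives, 935 kept their direction and their side of the threshold, 73 lost the call, 2 gained it (DMI3 without mock replicate 4, 1.23 with limma and 1.15 with DESeq2) and 5 changed sign. The sign changes are all of Castor, at -0.23 with CPM, -0.14 after quantile normalization, -0.01 with edgeR, and -0.01 and -0.02 without AMF replicates 3 and 4. Genes whose response in TT8 differed numbered 3589 against Hanevalval and 3353 against ICE36, and 5517 and 5521 without mock replicate 4 of TT8, a setting chosen after seeing the data. Promoter motifs and lists by description were not run.

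Depth was even between libraries, and precision is limited by 4 libraries per group and by the controls of genes with only a few reads, as in RAM1 and SETIT_039206mg.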

Other observations

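The TT8 table also holds 120 noncoding RNA genes, of which 109 passed the filter on low values. Of these, 18 rose and 12 fell in AMF-treated roots, beside 10.6% and 6.1% of all genes tested, with a median log2 fold change of 0.29, where all genes tested had -0.01, and without mock replicate 4 the counts were 21 and 16 among 107 tested. Listed genes at 0 numbered 88, 96, 130 and 144 in AMF-treated replicates 1 to 4 and 328, 310, 269 and 213 in mock-treated replicates 1 to 4. Every AMF-treated library thus had fewer genes at 0 than any mock-treated library, and mock replicate 4 had the fewest among the controls. The listed genes include 166 upregulated ones with at most 3 reads in every mock-treated library. Only 22 downregulated ones had so few in every AMF-treated library. Such genes feed these counts, which are not adjusted for depth, so they are a description.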
